A study of Homo sapiens with 20 samples.

Results

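The data were RNA-seq gene counts from K562 cells, an established human erythroleukemia line, after 72 h with the EZH2 inhibitor GSK343 at 5 uM or with its solvent DMSO for the same time. The series holds 20 RNA-seq libraries, and 4 of them belong to this comparison: 2 labelled GSK343 and 2 labelled DMSO, chosen by their sample labels and described by the design text as biological replicates. One label field calls the DMSO cells untreated, so DMSO is here the only baseline and an effect of the solvent itself cannot be read. The other 8 libraries of the drug arm were used for the shared estimate of spread and for side by side values: 2 had 100 uM X5050, a compound that lowers the repressor REST, for 72 h, and 6 had both drugs for 8, 24 or 72 h (2 each). The remaining 8 libraries of the series come from a knockout experiment and were not used. EZH2 protein and H3K27me3 were not analysed here.

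EZH2 is the main catalytic subunit of Polycomb repressive complex 2 (PRC2), which methylates histone H3 on lysine 27 at genes that a cell keeps silent, many of them for other lineages. EZH1 is its paralogue, and a complex called PRC1 binds the mark and helps to keep it in place. GSK343 competes with the methyl donor at the EZH2 active site, so the mark is diluted as cells divide while the EZH2 protein stays present. The comparison addresses which genes of a leukemic red cell line differed from DMSO after 3 days with GSK343.

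The libraries were first compared with each other. Reverse-strand totals were 23075827 and 26472232 counts in DMSO and 26372694 and 31149860 in GSK343. The DMSO pair differed from each other more than any other pair of the drug arm, with a median absolute log2 difference of 0.252 over 12293 genes, against 0.136 for GSK343 and 0.0813 to 0.178 for the other pairs. DMSO replicate 2 held more heat shock mRNA: HSPA1A, an inducible chaperone, was at 47.0 CPM (read counts scaled to a common library size) in DMSO replicate 1, 312 in DMSO replicate 2, and 38.1 and 69.0 in GSK343. HSPA1A and HSPA1B are near-identical copies, so the level of each is uncertain. Its co-chaperone DNAJB1 was at 63.4 CPM in DMSO replicate 1 and 262 CPM in DMSO replicate 2, against 79.6 and 78.5 CPM in GSK343. The cells carried the defining genes of the line: GATA1, the master erythroid factor, was at 191 and 220 CPM in DMSO and 186 and 188 CPM in GSK343, and TAL1, KLF1, TFRC and the embryonic and fetal globins HBE1, HBG1 and HBG2 were detected in every library, with none of these 7 genes called. Other globins, HBZ, HBA1 and HBQ1, were called lower and are described with the erythroid markers.

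With GSK343, 1754 of 19224 tested genes rose (9.12% of those tested) and 636 fell (3.31%) in edgeR's quasi-likelihood test at an adjusted p of 0.05. The rises were larger than the falls. Beyond a log2 change of 1 in either direction, 1199 genes rose (6.24%) and 38 fell (0.198%). The median log2 fold change of all tested genes was 0.000694, and that of the genes called higher was 1.57, against -0.51 for those called lower. The genes that rose beyond 1 log2 went from a median of 0.629 CPM in DMSO to 2.79 CPM in GSK343. Of them, 666 (55.5%) were below 1 CPM in both DMSO libraries. Over all 19224 tested genes the DMSO median was 8.53 CPM, and 4946 (25.7%) were below 1 CPM in both. A weak gene is called only with a large change, and some entered the test through a group that expressed them. The low DMSO level of the risen genes is therefore partly set by that selection. In GSK343, 235 of the 1199 had a mean of at least 10 CPM. This number includes genes that were above that level in DMSO too, such as ATP2A3 and CDKN1A. The genes called lower were already strong, with a median of 78.2 CPM in DMSO and 55.5 CPM in GSK343. With 2 libraries a group the smallest p of an exact permutation test is 0.333, so each p here rests on the variance model fitted over 12 libraries.

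The number of calls depended on single libraries. With DMSO replicate 1 left out, 2321 genes were called higher, and with DMSO replicate 2 left out 983. Leaving out GSK343 replicate 1 gave 1199, and leaving out GSK343 replicate 2 gave 635. Those called lower numbered 1966, 168, 250 and 104 in the same order. Of the 1199 genes that rose beyond 1 log2, 474 were called whichever of the 4 libraries was left out, and of the 38 that fell beyond 1 log2, 7 were. Those 7 are PCK1, FAXDC2, ADTRP, TENT5C, HERC2P3, BNIP3 and EZH1; PCK1 and HERC2P3 lie outside the rule for named genes and are given because the number is small.

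**Figure D1:**
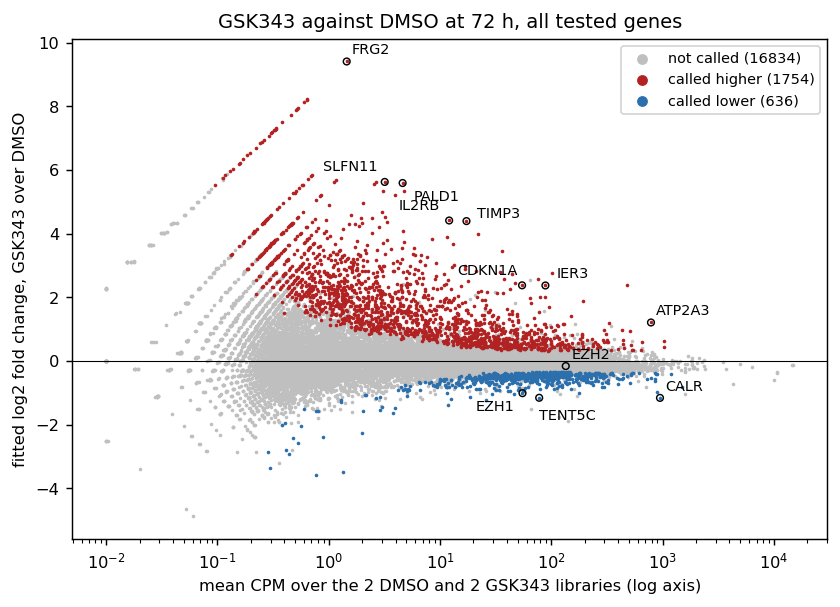
Fitted log2 fold change of GSK343 over DMSO (vertical) against the mean CPM of the 4 libraries (horizontal, log axis) for the 19224 tested genes; red points were called higher (1754), blue lower (636) and grey neither. Called rises reach several log2 among weakly expressed genes, while called falls lie mostly within 1 log2 among strongly expressed ones; parallel streaks at the left are genes with a few counts.

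The balance between rises and falls turned over with the level of the gene, where level is the mean CPM over the 12 drug libraries. Below 0.5 CPM, 276 of 3183 tested genes rose (8.67%) and 5 fell (0.157%). From 2 to 10 CPM, 414 of 3063 rose (13.5%) and 30 fell (0.979%). At 50 CPM and over, 231 of 4787 rose (4.83%) and 392 fell (8.19%). At this top level there were 1266 falls and 315 rises without DMSO replicate 1, and the order was the opposite without DMSO replicate 2, with 94 falls and 174 rises. Without GSK343 replicate 1 there were 151 falls and 147 rises at this level, and without GSK343 replicate 2 there were 58 falls and 60 rises. Below 10 CPM rises outnumbered falls with each of the 4 libraries left out. Depth sets which weak genes can be called, so the shares of different levels are described and not compared by a test.

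**Figure D2:**
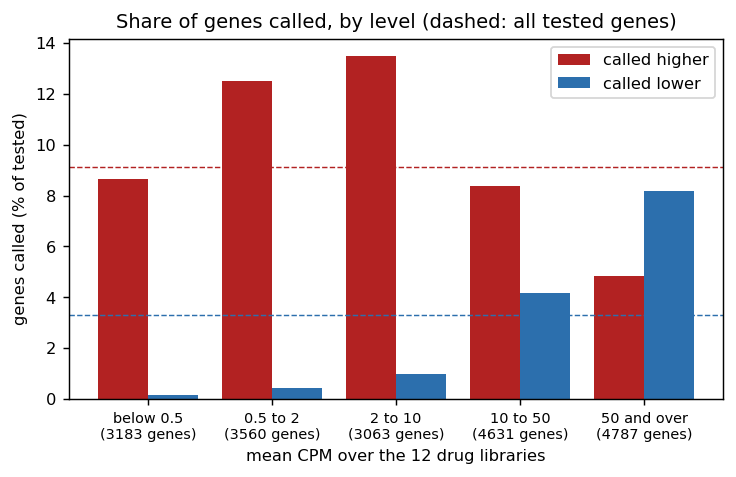
Percent of tested genes called higher (red bars) and lower (blue bars) with GSK343 in 5 bins of mean CPM over the 12 drug libraries, with the number of genes under each bin; dashed lines mark the shares over all tested genes, 9.12% and 3.31%. Red exceeds blue in every bin below 50 CPM, and blue exceeds red in the bin of 50 CPM and over, an order that did not hold without DMSO replicate 2 or without GSK343 replicate 2.

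Most of the calls were protein-coding genes, of which 1541 of 13465 rose (11.4%) and 595 fell (4.42%). Among long intergenic RNAs 63 of 1082 rose (5.82%) and 4 fell. Antisense RNAs gave 57 rises and 7 falls of 1726, and pseudogenes 42 and 12 of 1315. Small nucleolar RNAs gave 0 rises and 1 fall of 112. By chromosome the share that rose ran from 5.45% of 917 genes on chromosome 16 to 12.5% of 464 on chromosome 20, and falls ran from 0.358% on chromosome 13 to 4.09% on chromosome 15.

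The largest rises came from genes that were close to silent in DMSO. PALD1, a phosphatase-like protein of the endothelium, was at 0.165 and 0.200 CPM in the DMSO libraries and 8.89 and 9.20 CPM in the GSK343 libraries. The fitted log2 fold change was 5.60 ± 0.34 (± SE here and below; adjusted p = 1.47e-07). SLFN11, which blocks replication forks and sensitises cells to DNA damaging drugs, went from 0.165 and 0.0800 CPM to 6.48 and 6.02 CPM, a change of 5.63 ± 0.40 (adjusted p = 4.73e-07). Both GSK343 libraries lay far above both DMSO libraries for each of these genes, and the 2 GSK343 values were close to each other. CYP4F2, a cytochrome P450 that hydroxylates fatty acids and vitamin K, was at 0.165 and 0.0400 CPM in DMSO and 4.82 and 5.59 CPM in GSK343, a log2 change of 5.62 ± 0.55 (adjusted p = 9.01e-06).

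The stretches of 250 bases before the start sites of these 3 genes, and of TENT5C as the most significant of the 7 falls that held without any 1 library, are printed to show what kind of promoter each has. They are RefSeq sequence of GRCh38.p14, read 5′ to 3′ on the strand of the gene, in lower case with each CpG in capitals. The windows are PALD1 at chr10:70478517-70478766 on the plus strand, SLFN11 at chr17:35373622-35373871 on the minus strand, CYP4F2 at chr19:15898075-15898324 on the minus strand and TENT5C at chr1:117605798-117606047 on the plus strand.
PALD1: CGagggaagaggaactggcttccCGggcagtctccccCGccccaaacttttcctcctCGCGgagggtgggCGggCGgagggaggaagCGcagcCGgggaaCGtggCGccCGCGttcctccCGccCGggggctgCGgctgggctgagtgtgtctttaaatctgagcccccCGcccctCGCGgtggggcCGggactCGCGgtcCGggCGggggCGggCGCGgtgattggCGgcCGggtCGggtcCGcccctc
SLFN11: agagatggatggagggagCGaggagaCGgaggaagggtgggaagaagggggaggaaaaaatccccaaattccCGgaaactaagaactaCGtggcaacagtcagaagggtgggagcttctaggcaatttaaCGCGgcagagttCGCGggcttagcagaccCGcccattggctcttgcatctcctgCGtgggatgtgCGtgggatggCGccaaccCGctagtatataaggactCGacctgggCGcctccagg
CYP4F2: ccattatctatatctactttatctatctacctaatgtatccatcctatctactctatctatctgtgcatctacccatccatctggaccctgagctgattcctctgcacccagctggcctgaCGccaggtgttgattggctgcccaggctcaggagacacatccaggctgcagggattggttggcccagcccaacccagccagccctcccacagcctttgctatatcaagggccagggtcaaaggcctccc
TENT5C: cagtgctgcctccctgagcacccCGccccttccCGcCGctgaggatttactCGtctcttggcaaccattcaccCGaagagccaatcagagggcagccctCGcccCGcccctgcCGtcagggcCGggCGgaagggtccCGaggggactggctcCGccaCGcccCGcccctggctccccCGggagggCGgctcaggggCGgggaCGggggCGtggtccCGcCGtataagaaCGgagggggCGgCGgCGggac
CpG dinucleotides (the letters CG, the same on both strands) numbered 31 in the PALD1 window, 15 in SLFN11, 1 in CYP4F2 and 25 in TENT5C. Among the 27305 windows of this length in the RefSeq table the median was 11, with 42.7% holding at least 15, 15.4% holding at most 1 and 93.6% holding any. So the 3 risen genes span promoters rich and poor in CpG, and the fallen gene has a rich one. A comparison of promoter composition between sets of genes is void here, because windows were matched for 66.7% of the genes that rose beyond 1 log2 and for 62.4% of all tested, under the 80% it needs.

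Several further genes among the 15 largest rises act in lipids, in the matrix and on the cell surface. OLAH, a thioesterase that releases medium-chain fatty acids, was at 0.165 and 0.280 CPM in DMSO and 5.70 and 12.8 CPM in GSK343, a log2 change of 5.35 ± 0.48 (adjusted p = 3.47e-06). TIMP3, a matrix-bound inhibitor of metalloproteases, was at 1.24 and 1.88 CPM and 22.8 and 43.3 CPM, a change of 4.40 ± 0.41 (adjusted p = 2.34e-05). IL2RB, a subunit of the receptors for interleukins 2 and 15, was at 1.12 and 1.04 CPM and 17.8 and 28.4 CPM, a change of 4.42 ± 0.30 (adjusted p = 4.58e-07). In each of the 3 GSK343 replicate 2 was higher than replicate 1, and both lay well above the DMSO libraries.

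ENAH, an actin regulator at the leading edge of moving cells, was steadier, at 0.454 and 0.560 CPM in DMSO and 8.86 and 8.64 CPM in GSK343 (4.10 ± 0.30, adjusted p = 5.73e-07). ADGRG6, an adhesion receptor of Schwann cells, was at 0.330 and 0.280 CPM and 6.69 and 6.05 CPM (4.37 ± 0.48, adjusted p = 2.35e-05). MDGA1, an adhesion molecule of neurons, was at 0.206 and 0.360 CPM and 4.14 and 6.60 CPM (4.22 ± 0.38, adjusted p = 3.47e-06). GIMAP6, a GTPase of lymphocytes, was at 0.206 and 0.200 CPM and 2.80 and 6.54 CPM (4.50 ± 0.55, adjusted p = 6.55e-05). All 4 were called with any 1 library left out, as were the early response factors EGR2 and EGR3 among the same 15.

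The remaining 3 of the 15 lost their call without at least 1 DMSO library. CPNE5, a calcium-dependent membrane binding protein, was at 0.330 and 0.120 CPM in DMSO and 2.23 and 9.44 CPM in GSK343 (4.69 ± 0.73, adjusted p = 0.00141, and 0.0545 with DMSO replicate 2 left out). CEACAM1, an adhesion molecule, was at 0.248 and 0.280 CPM and 2.73 and 9.57 CPM (4.52 ± 0.88, adjusted p = 0.0073, and 0.0627 with DMSO replicate 1 left out and 0.128 with DMSO replicate 2 left out). CES1, a carboxylesterase of the liver, was at 0.0826 and 0.480 CPM and 2.34 and 6.97 CPM (4.02 ± 0.97, adjusted p = 0.0303, and 0.138 with DMSO replicate 1 left out, 0.155 with DMSO replicate 2 left out and 0.128 with GSK343 replicate 2 left out). In these genes GSK343 replicate 2 was far above replicate 1.

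**Figure D3:**
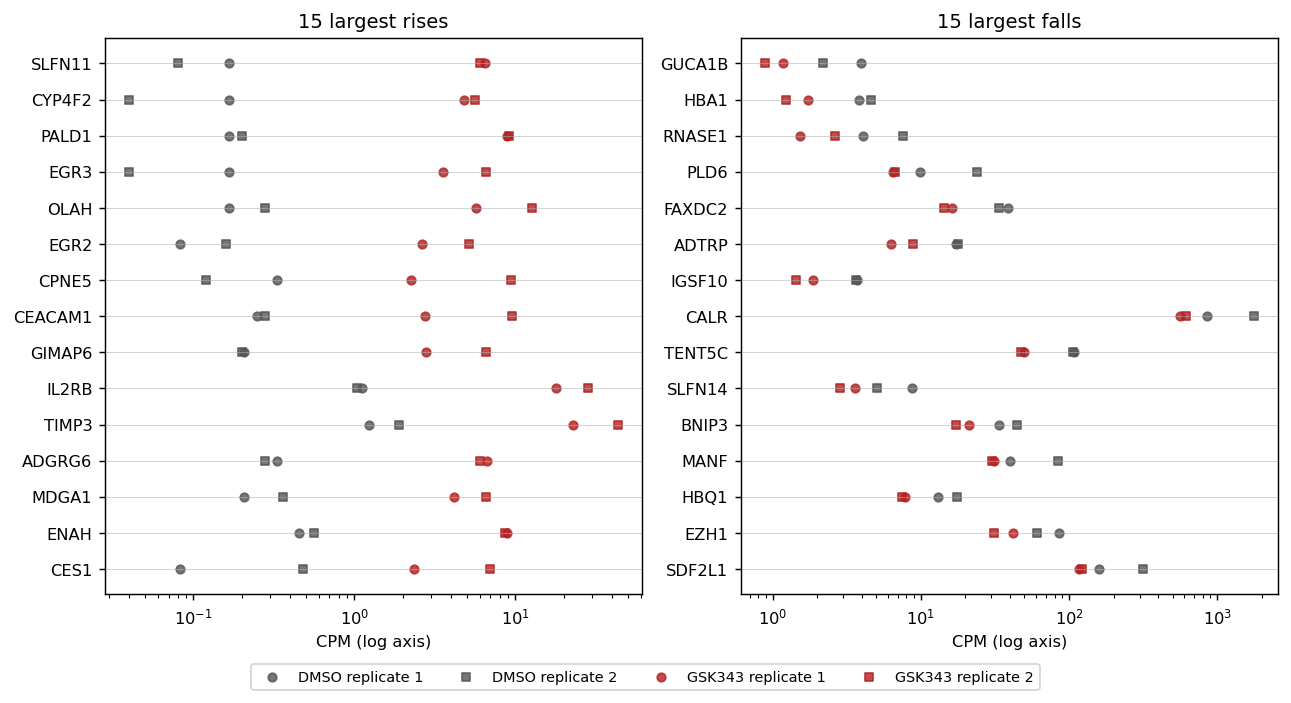
CPM (log axis) of the 15 largest rises (left) and 15 largest falls (right) among called protein-coding genes with at least 2 CPM on average over the 4 libraries; grey points are DMSO, red points GSK343, circles replicate 1 and squares replicate 2. The rises start below 2 CPM in DMSO and move by over an order of magnitude, whereas the falls are short, and in CALR, MANF, SDF2L1 and PLD6 the DMSO square stands apart from the circle.

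Other large rises were in genes that DMSO cells already used. TMEM158, a membrane protein induced by RAS signalling, was at 5.24 and 6.76 CPM in DMSO and 61.7 and 69.5 CPM in GSK343, a log2 change of 3.45 ± 0.15 with an adjusted p of 2.26e-09. AIF1L, an actin bundling protein, was at 17.8 and 25.05 CPM and 116 and 143 CPM (2.60 ± 0.23, adjusted p = 1.64e-05). COL6A2, a chain of collagen VI, was at 12.1 and 9.64 CPM and 57.5 and 72.1 CPM (2.57 ± 0.21, adjusted p = 1.44e-06). These 3 and PTPN7, a phosphatase of blood cells at 43.0 and 46.0 CPM in DMSO and 138 and 152 CPM in GSK343, lie outside the rule for named genes and were chosen after their values were seen. Of the 5 risen genes with the highest CPM, ATP2A3, a calcium pump of the endoplasmic reticulum in blood cells, was at 532 and 417 CPM and 1046 and 1156 CPM (1.21 ± 0.17, adjusted p = 0.000327). The other 4, CLIC1, FADS1, PPP2R5C and SLC7A5, had log2 changes of 0.36 to 0.64 and each lost its call without at least 1 library.

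The 33 genes switched on were defined by measured values, at most 0.05 CPM in both DMSO libraries and at least 0.5 CPM in both GSK343 libraries, so their levels are a description. They were 31 protein-coding genes and 2 long intergenic RNAs, and no gene met the mirror rule for switching off (0 to 3 with any 1 library left out). Members of very different programmes were among them: NPAS2, a clock transcription factor, PALLD, an actin scaffold, MCOLN3, an endosomal cation channel, SHANK2, a synaptic scaffold, BIRC7, an inhibitor of apoptosis, SOX8 and TOX2, transcription factors, CCR7, the homing receptor of lymphocytes, and the adhesion molecule NCAM1. PALLD had 0 counts in both DMSO libraries and 35 and 43 in GSK343, which is at least 21.1-fold higher against a floor of 3 counts over the DMSO group. MCOLN3 had 34 and 43 counts after 0 in DMSO (at least 20.8-fold), and CCR7 had 27 and 35 (at least 16.8-fold). These counts are low, yet both GSK343 libraries gave them. FRG2 had 34 and 149 counts after 0, but it has near-identical copies on other chromosomes, so its source is uncertain. NPAS2 had 1 count in each DMSO library and 49 and 51 in GSK343, a ratio of 40.6 with a 95% counting interval of 10.9 to 340.0.

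The genes nearest the limit on the inside were GPRC5A, with 0.531 and 0.525 CPM in GSK343, NCAM1, with 0.531 and 0.648 CPM, and FAM43B, with 0.531 and 0.802 CPM. Just outside were PDE9A, SPOCK1 and SNHG18, each at 0.496 CPM in GSK343 replicate 1. The number switched on was 120 with a lower on level of 0.25 CPM, 12 with limits of 0.1 and 1 CPM, and 44 to 85 with any 1 library left out. The rule for off is close to the smallest amount these libraries can show, 1 count being 0.0413 CPM in DMSO replicate 1 and 0.0400 CPM in DMSO replicate 2.

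In the other drug groups most of the 33 stayed low. The median level was 0.0207 CPM in DMSO and 0.966 CPM in GSK343, against 0.0535 CPM with X5050, 0.0420 CPM with both drugs for 8 h, 0.0829 CPM for 24 h and 0.268 CPM for 72 h. At least 0.5 CPM in both libraries was reached by 2 of the 33 with X5050, by 2 with both drugs at 8 h, by 10 at 24 h and by 8 at 72 h. CCR7 was the clearest of those, with 11.4 and 7.36 CPM with both drugs at 72 h against 0.956 and 1.08 CPM with GSK343 alone. HAVCR1, a receptor of the injured kidney, was at 0.531 and 0.772 CPM with GSK343 and at 0.0438 and 0.0763 CPM with both drugs at 72 h. HAVCR1 and CCR7 were chosen for description after their values were seen. The 33 were picked for being high with GSK343, so a lower level elsewhere is partly set by that choice.

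**Figure D4:**
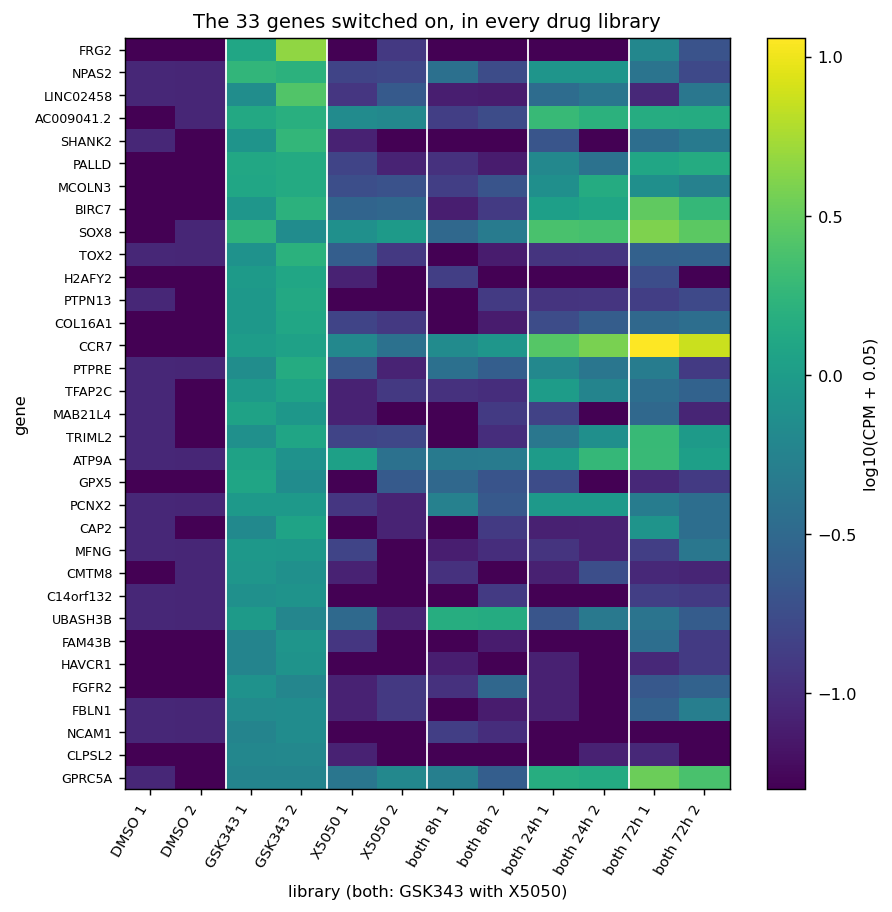
Heat map of log10(CPM + 0.05) for the 33 genes switched on (rows, from the highest to the lowest summed CPM with GSK343) in the 12 libraries of the drug arm (columns, 2 a group). The DMSO columns are dark and the GSK343 columns light by the rule that chose the genes; with both drugs at 24 and 72 h, CCR7, SOX8, BIRC7, AC009041.2 and GPRC5A are light while genes such as HAVCR1, NCAM1 and C14orf132 stay dark.

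Falls beyond 1 log2 were few. TENT5C, a poly(A) polymerase that stabilises mRNA of secreted proteins, was at 108 and 107 CPM in DMSO and 49.6 and 47.2 CPM in GSK343, a log2 change of -1.15 ± 0.14 (adjusted p = 5.03e-05). FAXDC2, an enzyme of sterol metabolism linked to megakaryocyte maturation, was at 38.7 and 33.6 CPM and 16.4 and 14.4 CPM (-1.23 ± 0.22, adjusted p = 0.00254). ADTRP, a hydrolase of hydroxylated fatty acid esters, was at 17.2 and 17.7 CPM and 6.34 and 8.92 CPM (-1.19 ± 0.20, adjusted p = 0.00112). In these 3 genes the replicates of each group were close and the groups were well apart. BNIP3, a receptor for mitophagy, was at 33.9 and 44.4 CPM and 21.1 and 17.3 CPM (-1.03 ± 0.15, adjusted p = 0.000373). PCK1, the entry enzyme of gluconeogenesis, was at 2.19 and 4.36 CPM and 0.567 and 0.802 CPM (-2.24 ± 0.42, adjusted p = 0.00243), with 53 and 109 counts in DMSO and 16 and 26 in GSK343. HERC2P3, a pseudogene with near copies, was at 28.9 and 22.4 CPM and 14.3 and 9.04 CPM and is uncertain for that reason.

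In a second set of falls DMSO replicate 2 stood above DMSO replicate 1. CALR, a calcium-binding chaperone of the endoplasmic reticulum, was at 857 and 1762 CPM in DMSO and 558 and 619 CPM in GSK343 (-1.15 ± 0.24, adjusted p = 0.0117, but 0.079 with GSK343 replicate 1 left out and 0.0692 with GSK343 replicate 2 left out). HSPA5, the main chaperone there, was at 1407 and 2397 CPM and 1094 and 1093 CPM (-0.80 ± 0.22, adjusted p = 0.0389, but 0.27 with DMSO replicate 2 left out, 0.131 with GSK343 replicate 1 left out and 0.144 with GSK343 replicate 2 left out). HSP90B1, MANF and SDF2L1, of the same compartment, had the same shape, with DMSO replicate 2 at 1563, 84.4 and 315 CPM, replicate 1 at 787, 40.0 and 159 CPM, and the GSK343 libraries below both. None of these 3 was called without DMSO replicate 2 (adjusted p = 0.0534, 0.247 and 0.057) or without either GSK343 library. The heat shock mRNAs named above were high in the same library, and their part in these calls was not tested.

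EZH2 itself, the target, did not pass the test, at 163 and 122 CPM in DMSO and 141 and 114 CPM in GSK343 (-0.15 ± 0.13, adjusted p = 0.514). Its paralogue EZH1 fell, from 86.0 and 61.3 CPM to 42.0 and 31.3 CPM (-1.01 ± 0.16, adjusted p = 0.000669). EZH1 was the 1 call among 14 tested PRC2 subunits, whose median log2 change was -0.15. Without DMSO replicate 1 there were 6 falls in this list and the fitted change of EZH2 was 0.0673, on the other side of 0. Of 21 tested PRC1 subunits PHC2 rose, from 71.7 and 72.8 CPM to 127 and 158 CPM (0.98 ± 0.12, adjusted p = 5.97e-05), and PHC3, PCGF1 and BCORL1 were called lower, each of the 3 losing its call without DMSO replicate 2 and without either GSK343 library (4 falls without DMSO replicate 1, 0 without each of the others). SWI/SNF subunits, which remodel nucleosomes against Polycomb, gave 4 of 25 lower and none higher, with 0 falls without DMSO replicate 2 or without either GSK343 library and 8 falls without DMSO replicate 1.

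The 60 gene lists were read as counts and medians beside all tested genes, of which 9.12% rose, 3.31% fell and the median change was 0.000694. Of protein-coding genes, 20.1% rose below 0.5 CPM, 25.2% from 0.5 to 2 CPM and 18.6% from 2 to 10 CPM. Their median changes were 0.961, 0.599 and 0.182, and 0.0876%, 0.547% and 1.1% fell. From 10 to 50 CPM 8.47% rose, and 4.82% at 50 CPM and over. The lists were not matched for level. A share near these, such as 26.7% of ion channels or 18.9% of solute carriers, cannot be read as a trait of the list. A list member silent in DMSO entered the test only where some group expressed it, so the shares describe the tested members and are no test of a list. The lists for receptors, secreted factors and lineage regulators had many rises and almost no falls. Of the 48 lists with a rise, the number of rises was lower by over 1.5 times in 41 without GSK343 replicate 2, in 31 without DMSO replicate 2, in 13 without GSK343 replicate 1 and in 3 without DMSO replicate 1, so the lowest and the highest count with 1 library left out stand beside the counts below. Some genes stand in more than 1 list, such as PAX5 and CYP4F2. Lists for the translation, splicing and protein turnover machinery had medians slightly below 0 and few calls.

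**Figure D5:**
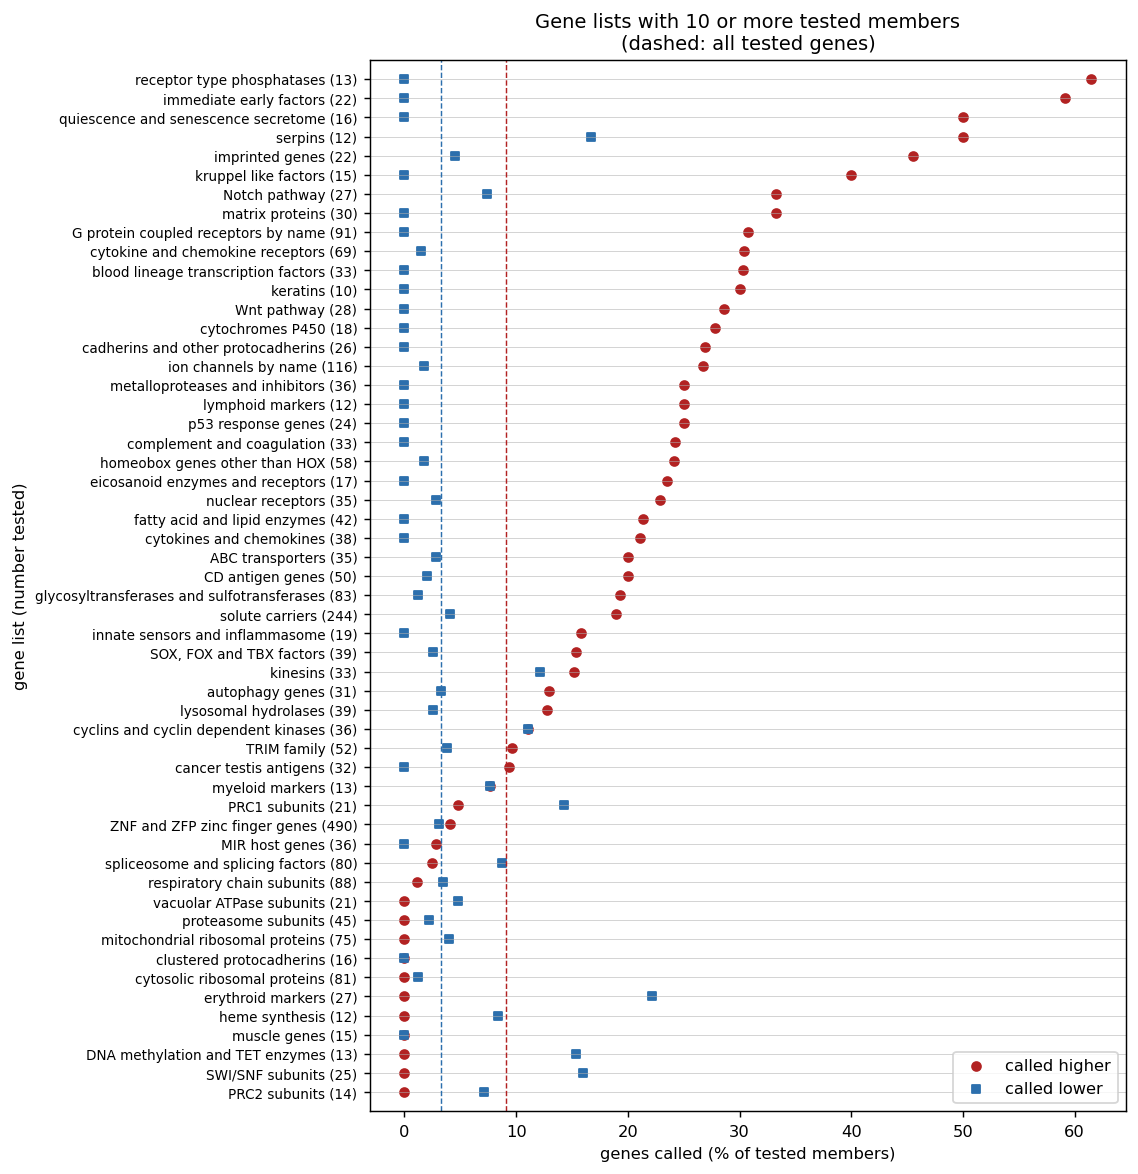
Percent of tested members called higher (red circles) and lower (blue squares) with GSK343 for 54 gene lists with at least 10 tested members, ordered by the red share, with the number tested in brackets; dashed lines mark the shares over all tested genes (9.12% and 3.31%). Red exceeds its line in 37 of the 54 lists and 11 lists have no member called higher. The lines are not matched to the gene type or level of a list. A single gene moves the share of a small list by several percent, and a blue square hides the red circle where both shares are equal.

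Among genes of surface signalling nearly every call was a rise. Of 69 tested cytokine and chemokine receptors 21 rose and 1 fell, with a median change of 0.71; the rises ran from 11 without GSK343 replicate 2 to 22 without GSK343 replicate 1. IL4R, the receptor chain for interleukin 4, was at 4.25 and 4.48 CPM in DMSO and 11.8 and 15.1 CPM in GSK343 (1.62 ± 0.20, adjusted p = 6.92e-05). LIFR, which binds leukemia inhibitory factor, was at 19.9 and 23.4 CPM and 46.0 and 46.5 CPM (1.09 ± 0.14, adjusted p = 9.65e-05). Their ligands were scarcer, with 8 of 38 tested cytokines and chemokines higher and 0 lower (from 3 without GSK343 replicate 2 to 9 without DMSO replicate 1), 50 of the 115 listed having 0 counts in all 4 libraries. CSF1, the macrophage growth factor, rose from 7.81 and 9.12 CPM to 23.4 and 28.5 CPM (1.62 ± 0.14, adjusted p = 2.55e-06).

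G protein coupled receptors gave 28 of 91 tested members higher and 0 lower (median 0.62; from 8 without GSK343 replicate 2 to 28 without DMSO replicate 1). LPAR5, a receptor for lysophosphatidic acid, was at 7.23 and 5.92 CPM in DMSO and 25.5 and 19.1 CPM in GSK343 (1.76 ± 0.23, adjusted p = 0.000169), and GPR157 was at 0.578 and 0.760 CPM and 4.43 and 5.80 CPM (2.93 ± 0.34, adjusted p = 3.83e-05). Receptor type tyrosine phosphatases, which oppose kinases at the membrane, gave 8 of 13 higher and 0 lower (median 1.24; from 3 without GSK343 replicate 2 to 6 without DMSO replicate 1). PTPRU was the strongest by p, at 10.4 and 8.80 CPM and 37.9 and 48.4 CPM (2.17 ± 0.19, adjusted p = 3.08e-06).

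Ion channels gave 31 of 116 tested members higher and 2 lower (median 0.50; rises from 13 without GSK343 replicate 2 to 36 without DMSO replicate 1). CACNA1H, a low-voltage calcium channel, was at 1.32 and 1.60 CPM in DMSO and 19.6 and 23.7 CPM in GSK343 (3.89 ± 0.34, adjusted p = 3.47e-06). P2RX1, the ATP-gated channel of platelets, was at 31.5 and 26.2 CPM and 96.03 and 109 CPM (1.83 ± 0.22, adjusted p = 0.000169). Solute carriers, the largest family of transporters, gave 46 of 244 higher and 10 lower (median 0.15; rises from 15 without GSK343 replicate 2 to 47 without DMSO replicate 1), led by SLC44A1, a choline transporter, at 5.33 and 5.60 CPM and 14.5 and 20.6 CPM (1.69 ± 0.20, adjusted p = 6.41e-05). Of 35 tested ABC transporters 7 rose and 1 fell (rises from 2 without DMSO replicate 2 to 5 without DMSO replicate 1). ABCB1, the efflux pump of multidrug resistance, was at 0.826 and 1.08 CPM and 6.38 and 7.28 CPM (2.83 ± 0.22, adjusted p = 1.03e-06), and its neighbour ABCB4, a phospholipid pump of the liver, was at 1.28 and 2.64 CPM and 8.43 and 15.8 CPM (2.62 ± 0.37, adjusted p = 0.000281).

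Immediate early genes and transcription factors of lineage were next. Of 22 tested immediate early factors 13 rose and 0 fell (median 1.14; from 8 without GSK343 replicate 2 to 12 without DMSO replicate 1). IER3 went from 26.6 and 30.6 CPM to 124 and 173 CPM (2.38 ± 0.17, adjusted p = 4.73e-07), and FOSL2, an AP-1 subunit, from 5.16 and 3.88 CPM to 13.6 and 21.4 CPM (1.95 ± 0.21, adjusted p = 1.9e-05). Kruppel like factors gave 6 of 15 higher (from 4 without DMSO replicate 2 to 6 without DMSO replicate 1), among them KLF13, at 32.0 and 31.2 CPM and 63.9 and 61.8 CPM (0.99 ± 0.13, adjusted p = 0.000105). Of 33 tested blood lineage factors 10 rose and 0 fell (median 0.31; from 5 without DMSO replicate 2 to 11 without DMSO replicate 1). PAX5, the factor that commits cells to the B lineage, was at 0.578 and 0.480 CPM in DMSO and 3.58 and 6.08 CPM in GSK343 (3.18 ± 0.42, adjusted p = 0.000134). ETV6 was at 24.0 and 28.4 CPM and 43.6 and 58.2 CPM (0.96 ± 0.16, adjusted p = 0.000829).

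Nuclear receptors gave 8 of 35 tested members higher and 1 lower (median 0.15; rises from 1 without GSK343 replicate 2 to 7 without DMSO replicate 1). VDR, the vitamin D receptor, went from 10.3 and 10.6 CPM to 32.0 and 47.9 CPM (1.93 ± 0.17, adjusted p = 3.47e-06). Homeobox genes outside the HOX clusters gave 14 of 58 higher and 1 lower (median 0.49; rises from 5 without GSK343 replicate 2 to 15 without DMSO replicate 1), with SATB1, a chromatin organiser of T cells, at 0.165 and 0.320 CPM and 2.16 and 2.41 CPM (3.21 ± 0.49, adjusted p = 0.000458). By contrast, the 490 tested zinc finger genes of the ZNF and ZFP names gave 20 rises (4.08%; from 5 without GSK343 replicate 2 to 59 without DMSO replicate 1), 15 falls (3.06%; from 2 without DMSO replicate 2 to 44 without DMSO replicate 1) and a median of -0.01. ZNF516 and ZNF521 were among those 20, the latter at 5.53 and 4.80 CPM and 11.8 and 14.1 CPM (1.32 ± 0.21, adjusted p = 0.000669). Cancer testis antigens, often silenced by DNA methylation, gave 3 of 32 higher (9.38%; from 0 without DMSO replicate 2 to 3 without DMSO replicate 1), with 36 of 86 at 0 counts. Clustered protocadherins gave 0 calls of 16, and muscle genes 0 of 15.

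In the Notch pathway receptors, a ligand and targets were among the rises. NOTCH2 went from 4.75 and 3.80 CPM to 20.2 and 21.3 CPM (2.28 ± 0.22, adjusted p = 6.88e-06). Among the targets, HEY1 went from 4.58 and 5.00 CPM to 12.5 and 14.5 CPM (1.50 ± 0.16, adjusted p = 1.95e-05) and HEYL from 3.06 and 2.96 CPM to 7.58 and 7.84 CPM (1.36 ± 0.26, adjusted p = 0.0027). In all, 9 of 27 tested members rose and 2 fell, with a median of 0.71, the rises running from 4 without GSK343 replicate 2 to 10 without DMSO replicate 1. The Wnt pathway gave 8 of 28 higher and 0 lower (median 0.34; from 3 without DMSO replicate 2 to 12 without DMSO replicate 1), among them both feedback inhibitors NKD1, at 0.372 and 0.480 CPM and 1.91 and 2.75 CPM (2.44 ± 0.42, adjusted p = 0.00123), and NKD2, at 1.65 and 2.36 CPM and 6.20 and 9.44 CPM (1.96 ± 0.35, adjusted p = 0.00186).

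Matrix proteins gave 10 of 30 tested members higher and 0 lower (median 0.58; from 2 without GSK343 replicate 2 to 9 without DMSO replicate 1). LAMC1, the common laminin gamma chain, was at 2.40 and 1.48 CPM in DMSO and 17.9 and 14.9 CPM in GSK343 (3.08 ± 0.24, adjusted p = 9.82e-07), and LAMC3 was at 0.372 and 0.160 CPM and 3.26 and 3.15 CPM (3.58 ± 0.52, adjusted p = 0.000346). Metalloproteases and their inhibitors gave 9 of 36 higher and 0 lower (median 0.49; from 6 without GSK343 replicate 2 to 13 without DMSO replicate 1), of which TIMP3 is described above and TIMP1 was at 43.9 and 55.8 CPM and 96.6 and 106 CPM (1.02 ± 0.13, adjusted p = 0.000137). Of 12 tested serpins 6 were called higher and 2 lower (rises from 3 without GSK343 replicate 2 to 6 without GSK343 replicate 1, falls from 0 without DMSO replicate 2 to 2 without DMSO replicate 1). SERPINE2, which inhibits thrombin and urokinase, was at 0.661 and 1.16 CPM and 6.84 and 14.9 CPM (3.57 ± 0.47, adjusted p = 0.000186).

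Growth control genes did not move as 1 block. CDKN1A, the inhibitor p21 that stops cyclin dependent kinases, was at 17.5 and 17.7 CPM in DMSO and 92.5 and 91.0 CPM in GSK343 (2.38 ± 0.14, adjusted p = 8.81e-08). CCND1, the cyclin of the G1 phase, rose as well, from 5.37 and 4.96 CPM to 35.2 and 38.9 CPM (2.84 ± 0.19, adjusted p = 4.58e-07). The 2 libraries of each group were close to each other for both genes, and the groups were far apart. Among 36 tested cyclins and cyclin dependent kinases 4 rose and 4 fell, with a median of -0.16; the falls ran from 1 without GSK343 replicate 2 to 11 without DMSO replicate 1. CDK11B was called lower with any 1 library left out, at 25.1 and 23.2 CPM and 15.3 and 14.7 CPM (-0.69 ± 0.13, adjusted p = 0.00206), but its near-identical copy CDK11A makes it uncertain. The list of p53 response genes gave 6 of 24 higher and 0 lower (median 0.30; from 3 without GSK343 replicate 2 to 7 without DMSO replicate 1), with FDXR, a mitochondrial reductase, at 82.8 and 84.5 CPM and 130.2 and 150.2 CPM (0.75 ± 0.13, adjusted p = 0.0012). K562 lacks working p53, as general knowledge of the line has it, so the name of that list stands for its genes only.

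Metabolic enzymes changed in small numbers. Of 42 tested enzymes of fatty acids and lipids 9 rose and 0 fell (median 0.10; from 3 without GSK343 replicate 2 to 9 without DMSO replicate 1). ELOVL7 and ELOVL2 extend long-chain fatty acids: ELOVL7 was at 24.4 and 33.4 CPM in DMSO and 51.9 and 62.7 CPM in GSK343 (0.99 ± 0.15, adjusted p = 0.000402). ELOVL2 was at 1.69 and 1.96 CPM and 7.33 and 7.38 CPM (2.01 ± 0.26, adjusted p = 0.000145). Eicosanoid genes gave 4 of 17 higher (from 2 without GSK343 replicate 2 to 4 without DMSO replicate 1), with TBXA2R, the thromboxane receptor, at 17.1 and 17.5 CPM and 32.2 and 33.4 CPM (0.92 ± 0.14, adjusted p = 0.000343). Lysosomal hydrolases gave 5 of 39 higher and 1 lower (rises from 2 without GSK343 replicate 2 to 8 without DMSO replicate 1), including GAA, which degrades glycogen, at 14.8 and 10.96 CPM and 30.7 and 27.04 CPM (1.16 ± 0.18, adjusted p = 0.000565).

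Imprinted genes, which are expressed from 1 parental copy, gave 10 of 22 tested members higher and 1 lower (median 0.44; rises from 4 without GSK343 replicate 2 to 8 without DMSO replicate 1). DLK1 was at 23.7 and 22.6 CPM in DMSO and 61.6 and 67.8 CPM in GSK343 (1.48 ± 0.18, adjusted p = 9.57e-05), H19 at 2.44 and 3.001 CPM and 10.4 and 8.86 CPM (1.83 ± 0.34, adjusted p = 0.00243), and ZDBF2 at 1.53 and 1.32 CPM and 6.31 and 6.70 CPM (2.19 ± 0.32, adjusted p = 0.000327). The long RNA KCNQ1OT1, which silences its neighbours on the paternal copy, went the other way, at 85.2 and 99.3 CPM and 61.2 and 52.5 CPM (-0.70 ± 0.12, adjusted p = 0.00153). Counts do not separate the parental copies, so a change of imprinting was not measured. Outside that list, the intergenic RNA AC091806.1 on the X chromosome had one of the strongest changes of its class, at 2.11 and 1.68 CPM and 22.5 and 26.6 CPM (3.70 ± 0.27, adjusted p = 5.88e-07), and was chosen after its value was seen.

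Markers of the red cell lineage were among the falls. Of 27 erythroid markers 26 had a negative fitted change (median -0.59), while 6 were called lower and 0 higher, the falls running from 2 without DMSO replicate 2 to 8 without GSK343 replicate 1. These falls are 22.2% of the list, against 3.31% of all tested genes and 8.19% of those at 50 CPM and over. HBZ, the embryonic zeta globin, was at 0.413 and 0.6001 CPM in DMSO and 0.0708 and 0.0617 CPM in GSK343 (-2.86 ± 0.66, adjusted p = 0.00939, but 0.0715 with DMSO replicate 2 left out and 0.0911 with GSK343 replicate 2 left out). HBA1, an alpha globin, was at 3.84 and 4.64 CPM and 1.74 and 1.23 CPM (-1.52 ± 0.37, adjusted p = 0.0138, but 0.111 with DMSO replicate 2 left out and 0.132 with GSK343 replicate 2 left out), and its reads cannot be told apart with certainty from those of its near-identical copy HBA2. HBQ1, the theta globin, which the list does not hold, was at 13.1 and 17.6 CPM and 7.79 and 7.47 CPM (-1.01 ± 0.21, adjusted p = 0.00532, but 0.0566 with DMSO replicate 2 left out and 0.0563 with GSK343 replicate 2 left out). All 3 globins lost their call with either replicate 2 library left out. RHAG, a membrane channel of red cells, was at 274 and 287 CPM in DMSO and 194 and 166 CPM in GSK343 (-0.64 ± 0.12, adjusted p = 0.00301, but 0.0571 with GSK343 replicate 2 left out). The summed level of the erythroid list was 3365 and 3488 CPM in DMSO and 3000 and 2315 CPM in GSK343. In bulk RNA, fewer cells of a type and less RNA per cell cannot be told apart.

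Of 16 megakaryocyte markers 7 were tested and 3 rose (from 2 without GSK343 replicate 2 to 4 without DMSO replicate 1). The fitted change was positive in 5 of the 7 and negative in 2. ITGA2B, the platelet integrin chain, was at 18.4 and 13.4 CPM in DMSO and 47.4 and 37.6 CPM in GSK343 (1.42 ± 0.19, adjusted p = 0.000149), and GP6, the platelet collagen receptor, at 2.27 and 2.76 CPM and 10.6 and 13.5 CPM (2.26 ± 0.22, adjusted p = 1.12e-05). The list summed to 29.7 and 28.2 CPM in DMSO and 78.9 and 79.2 CPM in GSK343. PF4 and GP9, also defining markers, had 0 counts in all 4 libraries. The lymphoid list summed to 116 and 138 CPM in DMSO and 107 and 126.5 CPM in GSK343, with PAX5, CD8B and IL7R called higher, CD8B and IL7R losing their call without at least 3 of the 4 libraries, and MS4A1 at 0 counts. The myeloid list summed to 95.6 and 92.8 CPM in DMSO and 102 and 133 CPM in GSK343, with LYZ called higher and ITGAM lower of 13 tested. ITGAM lost its call whichever library was left out, and LYZ had an adjusted p of 0.0732 with DMSO replicate 1 left out and 0.34 with GSK343 replicate 2 left out. CTSG, LILRB1 and LILRB2 were at 0 counts. Fibroblast, epithelial and endothelial markers summed to 550.2 and 601 CPM and then 720.0 and 833 CPM, with 2 rises and 1 fall of 8. Much of that sum was KRT8, a keratin at 216 and 238 CPM in DMSO and 340 and 384 CPM in GSK343 (0.67 ± 0.12, adjusted p = 0.00174). KRT8 lost its call without GSK343 replicate 2. Among the other markers COL1A1 went from 5.08 and 4.04 CPM to 16.3 and 19.7 CPM (1.98 ± 0.23, adjusted p = 3.59e-05). EPCAM went from 43.7 and 59.0 CPM to 32.5 and 30.6 CPM (-0.70 ± 0.14, adjusted p = 0.00361), and CDH5, EMCN and KRT5 had 0 counts.

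The general machinery of the cell gave few calls with all 4 libraries, and more falls without DMSO replicate 1. Cytosolic ribosomal proteins gave 0 rises and 1 fall of 81, although 75 of the 81 fitted changes were negative, with a median of -0.22. Their falls numbered 31 without DMSO replicate 1 and 0 without DMSO replicate 2. Mitochondrial ribosomal proteins gave 3 falls of 75 (from 0 without DMSO replicate 2 to 14 without DMSO replicate 1). Respiratory chain subunits gave 1 rise and 3 falls of 88 (falls from 1 without DMSO replicate 2 to 15 without DMSO replicate 1), and proteasome subunits 1 fall of 45 (from 0 without DMSO replicate 2 to 7 without DMSO replicate 1). Splicing factors gave 2 rises and 7 falls of 80 (falls from 0 without GSK343 replicate 2 to 26 without DMSO replicate 1). Of these, ATP5IF1, the inhibitor of the mitochondrial ATP synthase, was called with any 1 library left out, at 45.5 and 46.9 CPM in DMSO and 30.1 and 31.6 CPM in GSK343 (-0.58 ± 0.11, adjusted p = 0.00363).

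Some of the risen genes lay side by side. Along the gene order of GENCODE 29, 32 runs of 3 or more neighbouring tested genes all rose beyond 1 log2, and there was no such run of falls. The runs of rises held 104 of the 1199 genes that rose beyond 1 log2, which are 6.24% of tested genes. At that share some runs would arise without any grouping, and their number was not worked out. Only 38 tested genes (0.198%) fell beyond 1 log2, so a run of falls was hardly possible. The directions therefore cannot be compared in this respect. With DMSO replicate 1 left out there were 26 runs of rises and 1 run of 3 falls. The number of runs of rises was 7 with DMSO replicate 2 left out, 12 with GSK343 replicate 1 left out and 4 with GSK343 replicate 2 left out. The longest held 5 genes on chromosome 7, at the T cell receptor beta locus: TRBV27, PRSS1, TRBC2, EPHB6 and TRPV6. PRSS1, cationic trypsinogen of the pancreas, was at 0.578 and 0.720 CPM in DMSO and 8.50 and 9.07 CPM in GSK343 (3.75 ± 0.34, adjusted p = 3.47e-06). TRBC2, a constant segment of the receptor, was at 0.330 and 0.560 CPM and 4.57 and 7.87 CPM (3.79 ± 0.43, adjusted p = 3.59e-05), and EPHB6, a kinase-dead ephrin receptor, was at 13.8 and 9.44 CPM and 76.1 and 77.2 CPM (2.72 ± 0.23, adjusted p = 1.33e-05). TRBC2 has a close copy in TRBC1, and PRSS1 has near relatives in the same locus, so reads could be shared between them. The ends of the run were weaker: TRBV27 had 0 counts in DMSO and lost its call whichever of the 4 libraries was left out, and TRPV6, at 16.8 and 7.32 CPM and 57.0 and 49.6 CPM, was called without DMSO replicate 1 but not without any other.

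A run of 4 on chromosome 1 held PLA2G2C, UBXN10-AS1, UBXN10 and CAMK2N1. UBXN10, which acts at cilia, was at 30.1 and 21.6 CPM in DMSO and 101 and 105 CPM in GSK343 (1.99 ± 0.18, adjusted p = 8.41e-06), and CAMK2N1, an inhibitor of a calmodulin kinase, at 6.15 and 4.68 CPM and 18.3 and 24.4 CPM (1.98 ± 0.24, adjusted p = 7.72e-05). A further run of 4 on chromosome 12 ended in HMGA2, a fetal chromatin protein, with 0 and 2 counts in DMSO and 6 and 30 in GSK343 (adjusted p = 0.0437, but 0.128 with DMSO replicate 1 left out, 0.08 with DMSO replicate 2 left out and 0.406 with GSK343 replicate 2 left out). Other runs joined IGFBP4, TNS4, AC004585.1 and CCR7 on chromosome 17, GIMAP6, GIMAP2 and GIMAP5 on chromosome 7, SOX8 and CACNA1H with the RNA AC009041.2 on chromosome 16, and LAMA3, TTC39C and OSBPL1A on chromosome 18. In the last of these TTC39C was at 0.0826 and 0.0800 CPM and 1.74 and 1.91 CPM (4.42 ± 0.54, adjusted p = 7.65e-05), a gene chosen after its value was seen. The counts used strand, so antisense partners in these runs were counted apart from their sense genes.

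For the largest changes the values with X5050 alone at 72 h are given side by side; this comparison and the one with DMSO share the GSK343 libraries. SLFN11 was at 0.136 and 0.146 CPM with X5050, and GSK343 exceeded it by 5.43 ± 0.39 (adjusted p = 3.15e-07) on the log2 scale. TIMP3 was at 1.19 and 2.27 CPM, a difference of 4.26 ± 0.40 (adjusted p = 1.49e-05), and ENAH at 0.509 and 0.658 CPM, a difference of 3.90 ± 0.29 (adjusted p = 4.55e-07). For these genes the X5050 libraries lay among or near the DMSO values. PALD1 was at 0.780 and 0.768 CPM with X5050, a difference of 3.54 ± 0.27 (adjusted p = 6.52e-07), and CDKN1A at 25.4 and 27.7 CPM, a difference of 1.79 ± 0.13 (adjusted p = 4.55e-07). CCND1 was much closer, at 24.6 and 19.9 CPM with X5050 and a difference of 0.74 ± 0.17 (adjusted p = 0.00633). GP6 was at 15.7 and 11.01 CPM with X5050, TENT5C at 59.3 and 58.7 CPM, FAXDC2 at 19.9 and 14.6 CPM and ADTRP at 7.16 and 7.97 CPM. For GP6 the difference between the drugs was -0.15 ± 0.20 (adjusted p = 0.653), for TENT5C -0.29 ± 0.13 (adjusted p = 0.149), for FAXDC2 -0.17 ± 0.22 (adjusted p = 0.653) and for ADTRP 0.02 ± 0.20 (adjusted p = 0.969), and none of these 4 passed the test. Over all tested genes 2740 were higher with GSK343 than with X5050 (14.3%) and 1316 lower (6.85%). With both drugs at 72 h the largest rises differed by gene. CYP4F2 was at 0.219 and 0.0763 CPM there, ADGRG6 at 0.0438 and 0.229 CPM, GIMAP6 at 0.175 and 0.343 CPM and ENAH at 1.45 and 1.34 CPM. All of these were below both GSK343 libraries. EGR3, at 6.18 and 8.24 CPM, and CES1, at 5.65 and 13.7 CPM, stayed in or above the range of GSK343 alone. These examples were chosen after their values were seen, and the part of X5050 was not tested.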

How the data were processed

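RNA-seq gene counts of 12 drug-treated K562 libraries, deposited by the authors as STAR tables of raw counts per gene, were used; of these, 2 DMSO and 2 GSK343 libraries form the comparison. Per the submitters' processing notes the tools include Trimmomatic 0.38 and STAR 2.7.3a and the build is hg19; the annotation release is not given in the sources used here. The reverse-strand column (column 4) was taken, since it held 8.01 to 9.77 times as many counts as the forward one in every library. Rows that name no gene were left out of library sizes. Gene names and types came from GENCODE 29, which held 52301 of the 57736 gene IDs.

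edgeR 4.0.16 (R 4.3.3) fitted a robust quasi-likelihood model with 6 groups to all 12 libraries (22925617 to 38177320 counts), so that 6 residual degrees of freedom set the spread, after filterByExpr and TMM scaling; 19224 genes were tested, with Benjamini-Hochberg adjustment and a threshold of 0.05. CPM values are counts scaled by TMM library size, are not per length, and compare a gene between libraries only. The SE is the fold change divided by the square root of F. The method was tested on simulated data, in which no library stood apart as DMSO replicate 2 does here. Fold bounds and intervals cover counting error only.

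Genes named in the text are the 15 largest rises and falls among called protein-coding genes with at least 2 CPM on average over the 4 libraries and groups that do not overlap, the switched-on genes with the highest CPM, the 5 called genes of highest CPM in each direction, up to 4 called genes of lowest p in each list, EZH1, EZH2 and the genes of the 3 longest runs, taken in order of chromosome where runs are equally long. Genes outside this rule, chosen after their values were seen, are those of the other runs, the stress and cell identity genes used to describe the libraries, markers given at 0 counts, and any said to be so in the text. The members, the 60 lists and this rule were chosen with earlier results of these data known. Alternatives were DESeq2 1.42.0, RLE scaling, no filter, a GC correction, unstranded counts, fewer groups, a replicate block and each library left out. Promoter windows are RefSeq sequences of GRCh38.p14, a build other than that of the counts, and are matched by symbol. A few genes and 1 list are not reported here.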

Additional observations from a re-analysis of the deposited data

How the results depend on the processing

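Among 239 named genes, 238 were called, which the rule for naming them set in advance, and 122 kept their call with each of the 4 libraries left out. Over all calls, 542 of the 1754 higher and 56 of the 636 lower kept theirs. No named gene that was called changed direction under the alternatives run; the one reversed value was that of EZH2, which was not called, at 0.0673 on the log2 scale without DMSO replicate 1 and -0.349 without DMSO replicate 2, the ends of its range. Leaving out 1 library gave 635 to 2321 genes called higher, 104 to 1966 called lower, 546 to 1483 higher and 10 to 152 lower beyond 1 log2, 44 to 85 genes switched on and 0 to 3 switched off. With only the DMSO and GSK343 libraries in the fit, 1036 genes were called higher, 82 lower and 16 lower beyond 1 log2. With the 4 groups of 72 h, 233 were lower and 23 lower beyond 1 log2. With no filter beyond 1 count, 1100 were lower and 71 lower beyond 1 log2. Genes switched on numbered 12 with limits of 0.1 and 1 CPM and 120 with limits of 0.05 and 0.25 CPM. The cause of these differences was not tested. Rises made up 73.4% of the calls, 72.9% with RLE scaling, 67.6% with DESeq2, 63.5% with no filter, 84.9% with the 72 h groups, 92.7% with only these 4 libraries and 54.1% to 85.9% with 1 library left out.

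The replicate numbers of the labels are shared only as numbers. Same-numbered DMSO and GSK343 libraries deviated together (correlation of 0.42 over 12293 genes), but other groups did not all do so (-0.147 for DMSO with both drugs at 8 h). With the replicate number as a block, 1790 genes were higher, 652 lower, 1207 higher and 40 lower beyond 1 log2, and 7 of the 239 named genes lost their call. With the block and only these 4 libraries, an alternative chosen after seeing the data, 2114 were higher and 762 lower. Depth limits the weak genes: 1 count is 0.0413 CPM in DMSO replicate 1. The counts by list, level and run with 1 library left out were also chosen after seeing the data.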
